A study of Mus musculus with 2 samples.

Results

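The 68 genes described here encode the 4 classic families of axon guidance cues and their receptors, namely the semaphorins and plexins, the ephrins and Eph receptors, the Slits and Robos, and the netrins and Unc5 receptors. They were taken by name from the 21938 protein-coding genes of the GENCODE M21 annotation of the mouse mm10 genome, as every gene whose name opens with one of these family prefixes followed by its number or letter. The Slitrk genes and Unc5cl, which carry similar names, were not taken, and netrin-G1 and netrin-G2 (Ntng1, Ntng2) were. Of the members, 37 encode ligands and 31 encode receptors. Their chromatin was read from DNase-seq, which sequences the sites that DNase I can cut and so shows where DNA is free of nucleosomes. Nuclei came from left cerebral cortex of female B6CASTF1/J mice aged 18 to 20 months, a first-generation hybrid of a B6 and a CAST parent, with no treatment named in the labels. All material was of 1 group with 2 libraries, named library 1 and library 2 after their biological replicate numbers. The libraries were made from separate tissue samples under the same donor identifier, so the spread between them may be smaller than that between animals, and no test was made.

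Guidance cues steer growing axons by attraction or repulsion. Semaphorins signal through plexins, in the case of the secreted class 3 proteins mostly together with neuropilins. Ephrins are anchored in the membrane of 1 cell and bind Eph receptor tyrosine kinases on another, and signals can pass in both directions. Slits repel axons that carry Robo receptors, and netrin-1 (Ntn1) attracts through Dcc or repels through Unc5 receptors. The netrin-G genes are grouped with the netrins here by name alone. In the adult cortex many of the same proteins are known from synapses, glia and blood vessels.

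The authors listed 132054 peaks in library 1 and 139799 in library 2, and the read depth behind them is unknown. As a check of the labelled tissue, all 6 excitatory neuron markers had a peak at a start in both libraries, and so did 5 of 6 astrocyte, 4 of 6 inhibitory neuron, 4 of 5 oligodendrocyte precursor, 3 of 6 mural and leptomeningeal, 2 of 6 microglial, 2 of 5 ependymal and 1 of 6 endothelial markers. None of 4 hepatocyte and 4 skeletal muscle markers did. Over all protein-coding genes 63.6% had such a peak in both libraries. Inhibitory neuron markers lay near that share, and mural and leptomeningeal, microglial, ependymal and endothelial markers below it. Defining markers with no such peak in either library were Aqp4 of astrocytes, Sox10 of oligodendrocyte precursors, Csf1r and P2ry12 of microglia, and Pecam1, Tek and Tie1 of endothelial cells. In bulk tissue a site that is open in few nuclei and a site that is weakly open in all of them cannot be told apart, and this holds for every signal below.

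Most guidance genes had open chromatin at an annotated start. A peak lay within 500 bases of a start in both libraries for 61 of the 68 members (89.7%), against 63.6% of all protein-coding genes, and such genes are called open below. Neither library had one at 3 members (4.41%), against 32.6% of all genes, and 4 members (5.88%) had one in library 2 alone, against 2.84% of all genes. The promoter signal was the authors' signal of the strongest such peak, or 0 where there was none. Its median over the members was 1.49 and 1.82 in library 1 and library 2, and over all protein-coding genes it was 1.31 and 1.55. Among open genes alone the order turned round, with medians of 1.85 and 2.02 over 61 members and of 3.13 and 3.47 over 13956 genes. Guidance promoters were thus often open and seldom among the strongest: 12 of the 61 had a mean above the median of all open promoters, and the highest, Ephb3, lay above 96.4% of them.

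**Figure D1:**
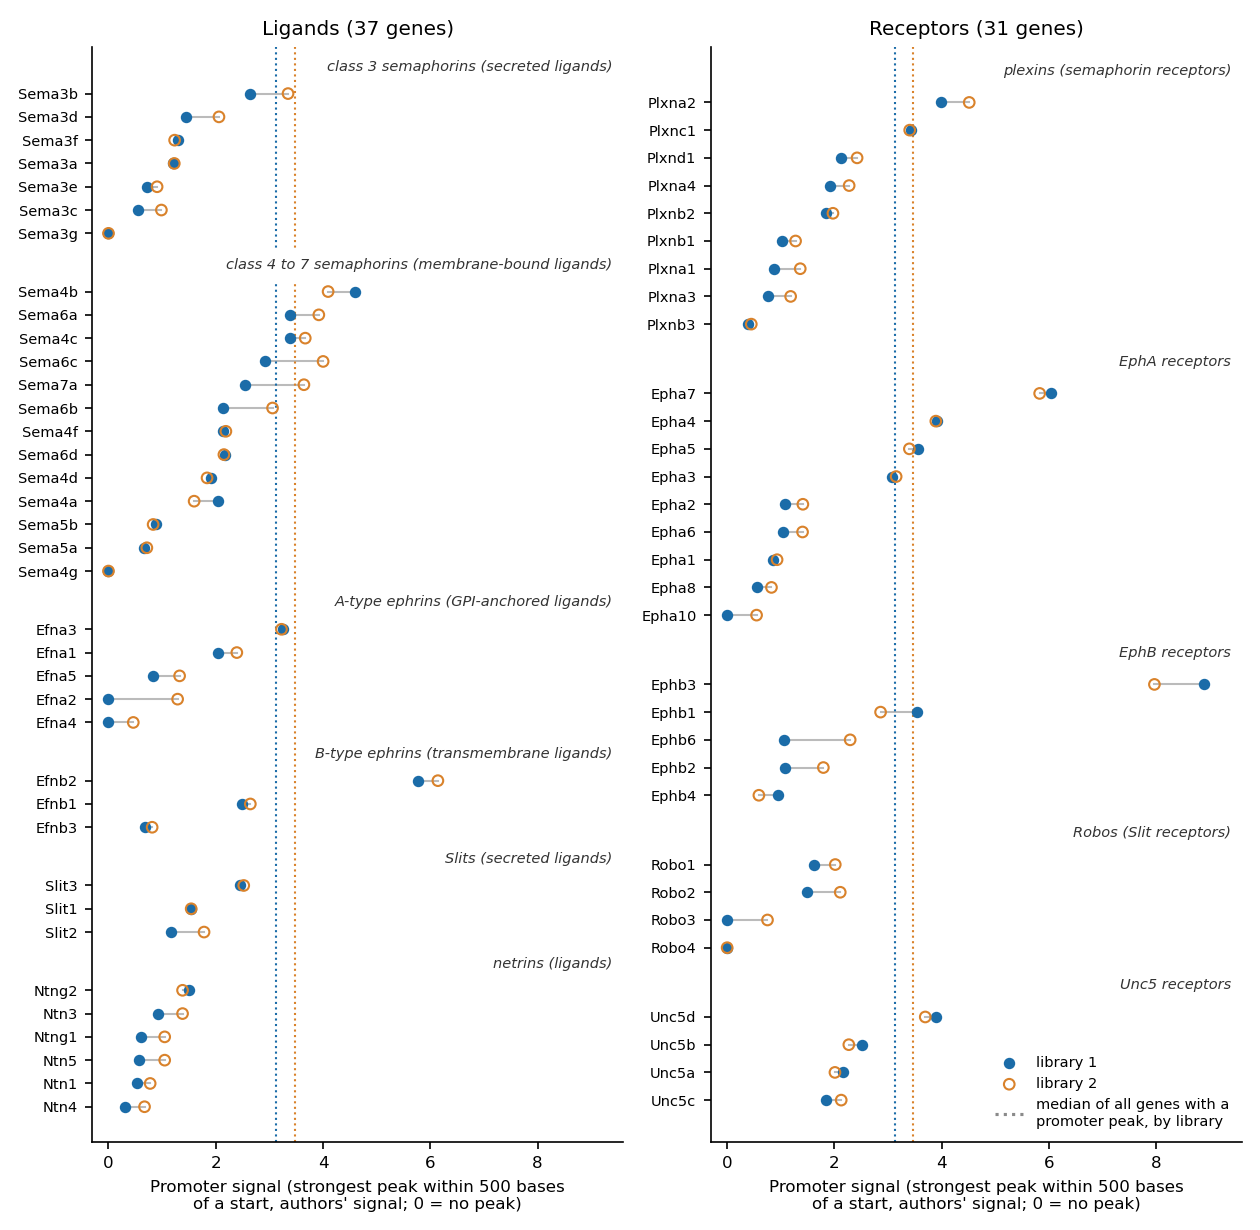
Promoter signal of the 37 ligand and 31 receptor genes, grouped by family and sorted by mean, with library 1 as filled and library 2 as open points and the pair joined by a line. The dotted lines stand at 3.13 and 3.47, the medians of all open genes in library 1 and library 2, and most members lie to their left, with Ephb3 at 8.89 and 7.97 as the highest.

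The sequences of 5 promoters show the range. They are the 250 bases before the start at the strongest peak for the 3 members of highest signal, and before the most upstream start for 2 members with no promoter peak. They come from the RefSeq sequence of the mm10 genome on the strand of the gene, and capitals mark bases inside a footprint of both libraries, that is a short stretch protected from DNase I within an open site. Ephb3 is at chr16:21204505-21204754, Efnb2 at chr8:8661243-8661492, Epha7 at chr4:28812881-28813130, Robo4 at chr9:37401647-37401896 and Sema3g at chr14:31217610-31217859.
Ephb3 promoter: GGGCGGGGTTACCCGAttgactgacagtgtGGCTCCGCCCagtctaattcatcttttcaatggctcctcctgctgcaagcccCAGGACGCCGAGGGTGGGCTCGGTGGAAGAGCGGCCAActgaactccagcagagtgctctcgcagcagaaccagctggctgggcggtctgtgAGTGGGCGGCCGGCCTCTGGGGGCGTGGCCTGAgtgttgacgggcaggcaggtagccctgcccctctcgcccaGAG
Efnb2 promoter: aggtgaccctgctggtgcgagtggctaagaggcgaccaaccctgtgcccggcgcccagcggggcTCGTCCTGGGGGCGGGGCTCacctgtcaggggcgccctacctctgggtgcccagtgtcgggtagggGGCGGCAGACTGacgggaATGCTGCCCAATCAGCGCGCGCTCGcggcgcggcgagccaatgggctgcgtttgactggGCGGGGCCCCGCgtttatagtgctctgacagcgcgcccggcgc
Epha7 promoter: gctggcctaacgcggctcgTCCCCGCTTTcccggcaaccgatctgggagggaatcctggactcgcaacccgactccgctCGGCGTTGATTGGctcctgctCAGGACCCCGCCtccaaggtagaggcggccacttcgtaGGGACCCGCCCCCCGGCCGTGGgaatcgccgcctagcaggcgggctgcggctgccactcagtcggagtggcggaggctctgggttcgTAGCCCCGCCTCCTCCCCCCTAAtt
Robo4 promoter: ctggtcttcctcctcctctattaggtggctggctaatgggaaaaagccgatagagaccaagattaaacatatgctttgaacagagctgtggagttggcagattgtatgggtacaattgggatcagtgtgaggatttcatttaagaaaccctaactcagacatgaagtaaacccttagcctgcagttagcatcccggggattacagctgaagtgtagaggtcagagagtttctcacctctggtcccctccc
Sema3g promoter: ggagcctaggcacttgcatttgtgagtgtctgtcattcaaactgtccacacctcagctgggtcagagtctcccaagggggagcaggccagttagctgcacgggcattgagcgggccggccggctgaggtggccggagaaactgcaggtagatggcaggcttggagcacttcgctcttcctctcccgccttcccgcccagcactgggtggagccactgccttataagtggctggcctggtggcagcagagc
The stretch of Ephb3 held 100 bases in footprints of both libraries, that of Efnb2 69 and that of Epha7 80, while those of Robo4 and Sema3g held none. The GC box (GGGCGG on either strand), the letters bound by Sp factors, matched 4 times in Ephb3, 3 times in Efnb2, once in Epha7 and once in Sema3g, and 3, 3, 1 and 0 of these matches overlapped a footprint in both libraries. GC content was 65.6% in Ephb3, 72% in Efnb2, 69.2% in Epha7, 46.8% in Robo4 and 62% in Sema3g, so the stretch of Sema3g was GC-rich without a peak.

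Among the semaphorins, the class 3 genes, which encode secreted ligands, had low promoter signals, and the membrane-bound class 4 to 7 genes higher ones. The median was 1.20 in library 1 and 1.23 in library 2 over the 7 class 3 genes, and 2.14 and 2.19 over the 13 others. Sema3b was the highest of class 3 at 2.64 and 3.35, and Sema3c at 0.558 and 0.987 and Sema3e at 0.721 and 0.907 were the lowest with a peak. Sema3a, the cue that collapses growth cones of sensory axons, had 1.20 and 1.23, and Sema3d and Sema3f had means of 1.75 and 1.26. Sema3g had no peak within 500 bases of its start in either library. Both libraries listed 3 peaks over Sema3g and its flanks, the strongest of them 16321 bases downstream of the start at 1.97 and 2.74.

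Sema4b had the strongest promoter of the semaphorins at 4.60 in library 1 and 4.09 in library 2, followed by Sema6a with a mean of 3.66 ± 0.377 (SD, n = 2), Sema4c with 3.52 ± 0.207 and Sema6c with 3.46 ± 0.765. Sema7a, a GPI-anchored semaphorin, had 2.54 and 3.64. Sema5a and Sema5b, which carry thrombospondin repeats, had the weakest open promoters of these classes, at 0.667 and 0.715 and at 0.878 and 0.832. Sema4g had no promoter peak in either library, although both listed a peak away from starts with a mean signal of 1.51. Between them lay Sema6b, Sema4f, Sema6d, Sema4d and Sema4a, with means of 2.60, 2.17, 2.16, 1.87 and 1.82. Sema4f and Sema6d differed by less than the spread between libraries, and the gap from Sema4b to Sema5a was larger than the difference between libraries at any semaphorin.

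All 9 plexins, the semaphorin receptors, were open. Plxna2 was the highest at 3.98 and 4.51, from a peak at its second start, 1.61 kb from the first, and its signal was 0 at the most upstream start alone. Plxnc1, the receptor of Sema7a, followed at 3.44 and 3.40, with a mean of 1.69 at its most upstream start. Plxnd1, which binds Sema3e without a neuropilin, had 2.12 and 2.42, Plxna4 had 1.91 and 2.27, and Plxnb2 had 1.85 and 1.97. Plxnb1, Plxna1 and Plxna3 lay between means of 0.973 and 1.15. Plxnb3 was the lowest, with 0.395 and 0.450, and its start had few CpG dinucleotides, at 0.101 of the number expected from base composition, against a median of 0.655 over the members.

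The ephrins differed widely. Efnb2, a transmembrane ligand also known as a marker of arteries, had the second strongest promoter of all members at 5.76 in library 1 and 6.14 in library 2, whereas Efnb1 had 2.48 and 2.65 and Efnb3 0.687 and 0.814. Of the GPI-anchored A-type ephrins, Efna3 had 3.26 and 3.23 and Efna1 had 2.04 and 2.39. Efna5, a ligand of the maps formed by retinal and cortical projections, had 0.824 and 1.33. Efna2 had no promoter peak in library 1 and a signal of 1.29 in library 2, and Efna4 had none in library 1 and 0.463 in library 2. Library 1 listed 3 peaks over Efna2 and its flanks and library 2 listed 9, so the libraries disagreed over this gene as a whole. Efna1, Efna3 and Efna4 are neighbours on chromosome 3, with gaps of 32.8 and 10.4 kb between them.

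The Eph receptors held both the strongest promoter and several weak ones. Ephb3 had 8.89 in library 1 and 7.97 in library 2 (8.43 ± 0.652, SD, n = 2). Epha7 followed at 6.04 and 5.83, above 82.0% of open promoters and within the spread between libraries of Efnb2, and then Epha4 at 3.92 and 3.89, Epha5 at 3.55 and 3.40, Ephb1 at 3.54 and 2.86 and Epha3 at 3.07 and 3.15. A group of low promoters had means of 1.44 or less, with Epha2 at 1.07 and 1.41, Epha6 at 1.03 and 1.41, Ephb2 at 1.08 and 1.79, Epha1 at 0.857 and 0.931, Epha8 at 0.565 and 0.826 and Ephb4, a receptor known from veins, at 0.939 and 0.592. No EphA promoter had a mean between those of Epha2 and Epha3, at 1.24 ± 0.238 and 3.11 ± 0.0577. Epha10 and Ephb6, whose proteins lack an active kinase, stood out for differing between libraries. Epha10 had no promoter peak in library 1 and 0.549 in library 2, with a stronger peak at 2.50 and 2.92 centred 822 bases downstream of the start, just outside the window. Ephb6 had 1.06 in library 1 and 2.29 in library 2.

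Among the Slits, Slit3 was the highest with 2.44 and 2.52, above 1.53 and 1.54 at Slit1 and 1.16 and 1.78 at Slit2. Within 200 bases of a start the mean of Slit3 was 1.17, against 2.48 as reported, so its place above the other Slits did not hold there. Robo1 at 1.61 and 2.02 and Robo2 at 1.48 and 2.11 differed by less than the spread between libraries. The other 2 Robo genes lacked a peak in at least 1 library. Robo3, known from commissural axons that cross the midline, had none in library 1 and 0.752 in library 2. Robo4, known from endothelial cells, had none in either, and neither did 3 of the 6 endothelial markers, while Kdr had 0.544 and 1.17, and Cldn5 and Flt1 had a peak in library 2 alone at 0.315 and 0.456. The part of this cell type in the values of Robo4 was not tested. Robo3 and Robo4 end 0.554 kb apart on chromosome 9, so the same peaks lie near both.

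The netrins were the weakest family and the Unc5 receptors among the stronger ones. All 6 netrin genes were open, with medians of 0.589 and 1.05 in library 1 and library 2, and the 4 Unc5 genes had medians of 2.33 and 2.20. Ntng2 at 1.5 and 1.38 and Ntn3 at 0.926 and 1.38 were the highest netrins, Ntng1 had 0.606 and 1.05 and Ntn5 had 0.572 and 1.05. Ntn1, the canonical midline attractant, had 0.524 and 0.777, and Ntn4, a netrin of basement membranes, had 0.306 and 0.672, above 3.48% of open promoters. Unc5d had 3.89 and 3.69, Unc5b 2.51 and 2.27, Unc5a 2.15 and 2.01 and Unc5c 1.85 and 2.13. The highest netrin lay below the lowest Unc5 gene in both libraries, but not with a window of 2000 bases, where Ntn3 had a mean of 2.22 and Ntn5 2.51, against 1.99 at Unc5c. By family the median over both libraries ran from B-type ephrins (2.57 ± 0.114, SD, n = 2) through Unc5 receptors (2.27 ± 0.0938), class 4 to 7 semaphorins (2.17 ± 0.0320), plexins (1.91 ± 0.0863), EphB receptors (1.69 ± 0.857), Slits (1.66 ± 0.177), EphA receptors (1.24 ± 0.238), class 3 semaphorins (1.21 ± 0.0207), A-type ephrins (1.07 ± 0.355) and Robos (1.06 ± 0.454) to netrins (0.818 ± 0.325). From plexins to Slits and from EphA receptors to netrins, neighbours in this order lay closer than the larger of their SDs. The range within each large family was wider than these gaps. Ligands as a whole had medians of 1.44 and 1.54 and receptors of 1.61 and 2.02.

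Many guidance genes have several annotated starts, and the open one was not always the first. Starts within 1000 bases of each other were joined into groups. Of the 54 members with at least 2 groups, 16 (29.6%) had 2 or more of them open in both libraries, against 18.5% of all genes of this kind. These shares include genes that were not open. Open were 50 of the 54 members and 9256 of the 12355 genes, and among these 16 members and 2283 genes had 2 or more open groups. The number of groups per gene was not matched. Of the 50 that were open, 11 (22%) had their strongest peak at a group other than the most upstream, against 17.8% of all such genes. Sema3b was open only at the most downstream of 4 groups, 7.06 kb into the gene. Plxnc1 had 3.44 in library 1 and 3.40 in library 2 at the last of 5 groups, 115.3 kb downstream of the first, which had 1.42 and 1.96. Sema6d had 2.16 and 2.15 at a group 520.1 kb from the first, which had 0.892 and 1.05. Robo1, whose first group had 0.551 and 0.672, had 1.61 and 2.02 at a group 354.8 kb further on. Sema3a was open only at the last of 3 groups, 273.3 kb from the first.

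Slit3 had 3 open groups, with 1.32 and 1.02 at the first, 0.708 and 0.611 at a second 50.4 kb on, and 2.44 and 2.52 at the strongest, 56.6 kb from the first. Ephb3 combined its very strong first group with another of 3.24 and 3.40 at a distance of 5.77 kb. Sema4b, Sema4f and Sema4d also had 2 open groups each, with means of 4.35 and 2.45 at Sema4b, 2.17 and 1.43 at Sema4f, and 1.62 and 1.76 at Sema4d. The strongest group of Sema4a, the last of 7 at 2.04 and 1.60, holds the start of the microRNA gene Mir7011 as well. Starts of other genes lay in the strongest window of 7 further members, among them Epha4 (Gm28386), Ntng2 (6530402F18Rik), Sema4c (D430040D24Rik) and Sema5a (Snhg18), and their signal cannot be told apart from that of the member.

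**Figure D2:**
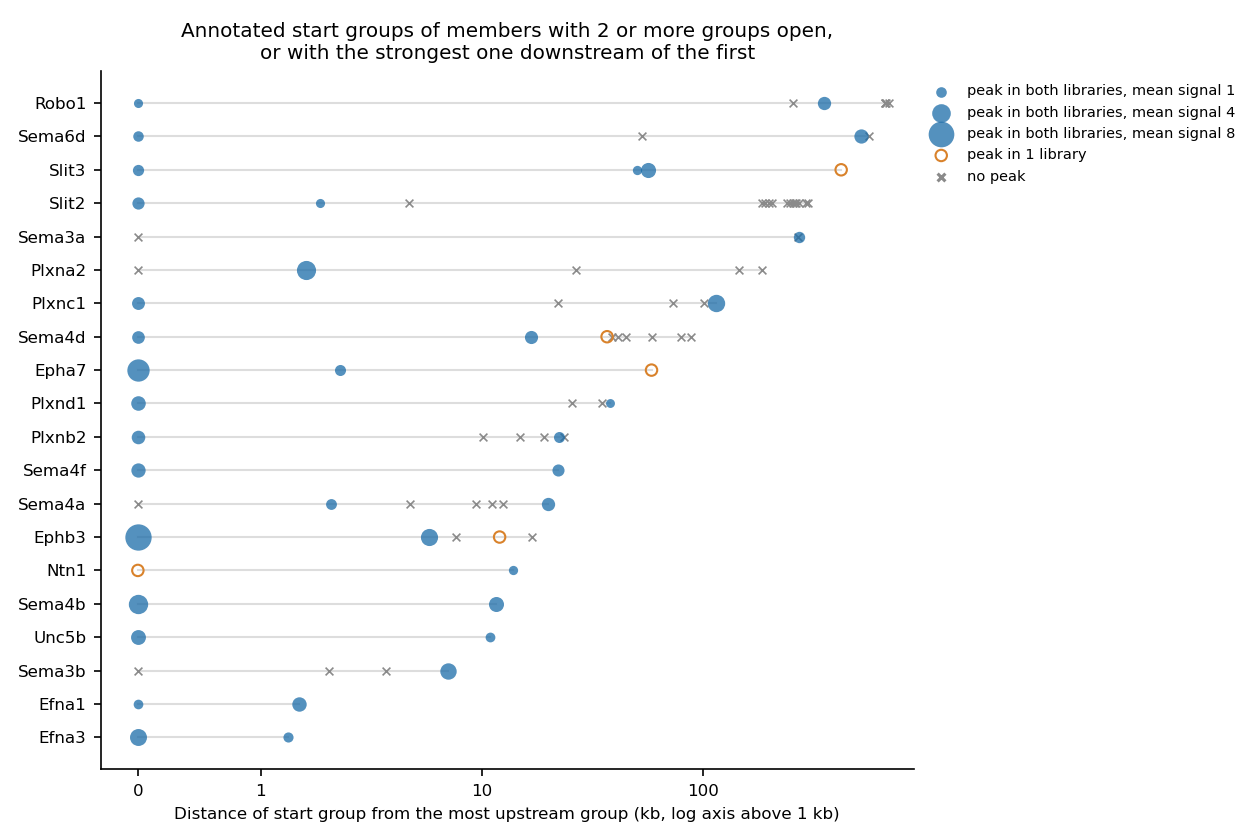
Start groups of the 20 members with 2 or more open groups or with the strongest group downstream of the first, by distance from the most upstream group in kb. Filled points are groups with a peak in both libraries, sized by mean signal, open points have a peak in 1 library and crosses have none. Sema6d, Robo1, Sema3a and Plxnc1 carry their strongest point over 100 kb from the first group.

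Over whole genes, guidance loci carried more peaks than genes of their length usually did. With 10 kb on either side, 907 peaks lay over the members in library 1 and 941 in library 2, and no member was without one. The members are long, with a median of 45.1 kb against 17.4 kb over all protein-coding genes, so each number of peaks was turned into a size percentile. This is the percent of the 200 genes of nearest length with fewer peaks, where genes with an equal number count as 1 in 2. The median size percentile of the members was 75.2 in library 1 and 69.4 in library 2, against 49.5 in both over all genes. Over 75 in both libraries lay 26 members (38.2%), against 19% of all genes, and under 25 in both lay 4 members (5.88%), against 21.4%. These 4 were Epha2, Sema3c, Epha6 and Ephb4.

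**Figure D3:**
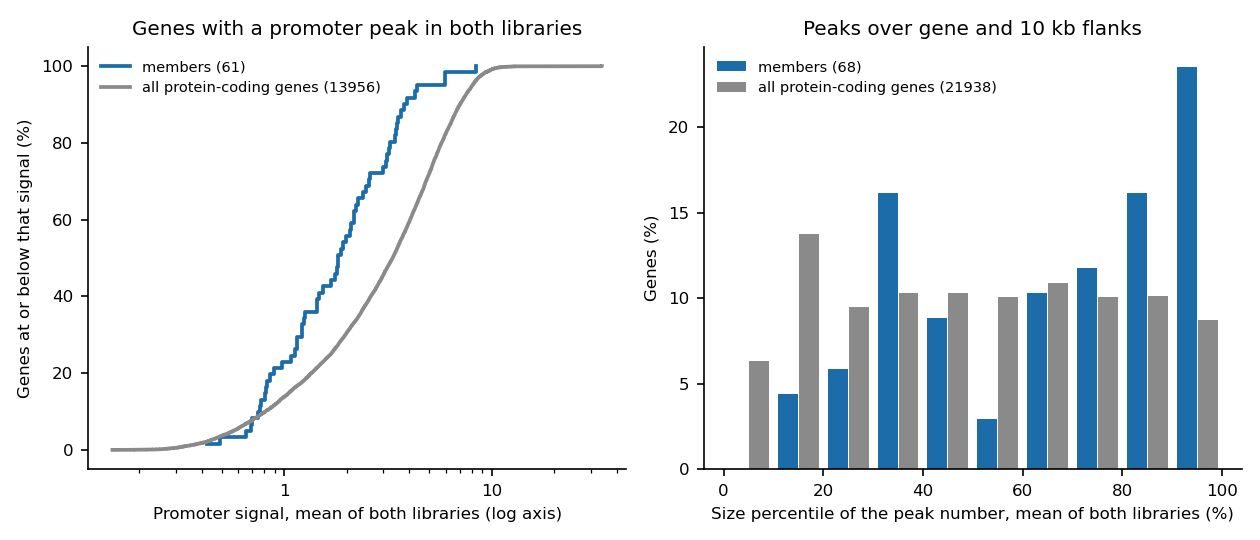
Left, cumulative share of genes by mean promoter signal, for the 61 open members and all 13956 open protein-coding genes. Right, share of the 68 members and of all 21938 genes by size percentile of their peak number, where 23.5% of members and 8.70% of all genes lie from 90 to 100.

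Slit3 had the most peaks, 56 in each library. Ephb1 had 38 in library 1 and 29 in library 2, Plxna4 35 in each, Unc5d 33 and 35, Robo1 31 and 35, Efna5 31 and 33 and Ephb2 26 and 37. Set against genes of like length, Sema7a, of 22.8 kb, had 12 and 14 peaks and size percentiles of 99.2 and 98.5. Efna3 had 13 and 12 peaks over 9.07 kb and its flanks and percentiles of 99.0 and 97.8, Ntn3 97.8 and 97.0, Plxnb2 97.2 and 96.5, Sema3f 94.8 and 97.2 and Ephb2 92.8 and 98.8. At the other end Epha2 had 1 peak in each library, the one at its first start, and percentiles of 11.8 and 10. Sema3c had percentiles of 10 and 12, and Epha6, the longest member at 952 kb, had 18 and 21 peaks and percentiles of 14 and 18.5. Robo2 had 26.8 and 16, Ephb4 23.2 and 21, and Sema3d 14.5 and 30.8. Ephb3, with the strongest promoter, had 3 and 7 peaks and percentiles of 36 and 80.2.

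**Figure D4:**
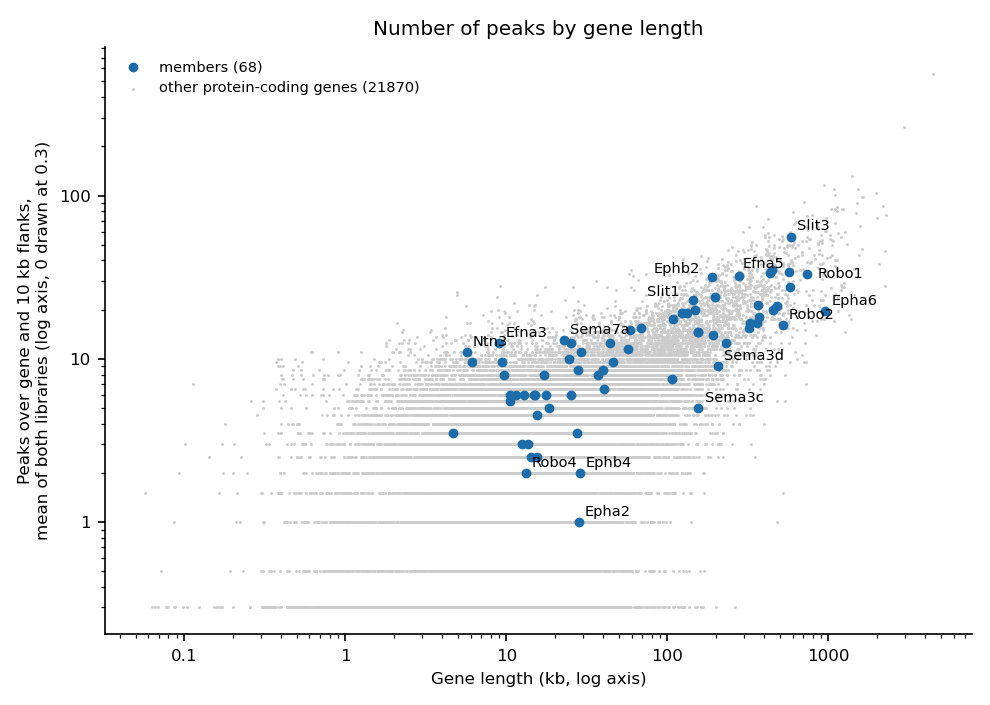
Mean number of peaks over gene and 10 kb flanks against gene length, both on log axes, for the 68 members and the 21870 other protein-coding genes. Slit3, with 56 peaks in each library, lies high among genes of its length, and Epha2, with 1 peak, and Epha6 lie low.

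Most of the open sites at guidance genes were away from starts, as they were over the genome. Of the member peaks, 709 in library 1 (78.2%) and 731 in library 2 (77.7%) lay more than 500 bases from every annotated start, 153 and 165 lay at a start of the member, and 45 in each at starts of other genes only. Peaks that were each other's strongest overlap in the 2 libraries gave 663 pairs over the members, of which 510 lay away from starts. Over the genome 74641 of 99347 such pairs did. Of the 510 member pairs, 392 (76.9%) lay in introns, a share that was not set against all pairs. Their median signal, as the mean of both libraries, was 0.763, against 0.725 over all 74641 such pairs in the genome, and 7.25% of member pairs and 8.26% of all pairs had a mean over 2. Of the 61 open members, 24 (39.3%) had such a pair stronger than the promoter peak, against 20.5% of all genes of this kind. These shares were not matched for gene length. Members are longer, with a median of 45.1 kb against 17.4 kb, and their open promoters weaker, with medians of 1.85 and 2.02 against 3.13 and 3.47. The part of length and promoter signal in this difference was not tested. All 6 netrins were among the 24, with pairs of up to 2.51 at Ntn5, and so were 4 membrane-bound semaphorins, Sema4a, Sema5a, Sema5b and Sema7a.

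The strongest pair away from starts lay 3612 bases upstream of Sema3b, with 7.80 in library 1 and 8.34 in library 2, more than the 2.64 and 3.35 at its promoter. Epha4 followed with 4.21 and 5.41 at 1363 bases upstream of a start, within the neighbouring Gm28386, and Robo3 with 4.10 and 5.22 in an intron, 647 bases upstream of an inner start. Slit1 had 4.06 and 4.16 in an intron 45845 bases from the nearest start. The next were pairs downstream of Sema4a (3.85 and 3.82) and of Unc5b (3.40 and 3.78), in an intron of Ephb2 (3.31 and 3.82) and 4241 bases upstream of Sema7a (2.80 and 4.30). Libraries agreed within 0.1 at Slit1 and Sema4a and differed most at Sema7a.

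**Figure D5:**
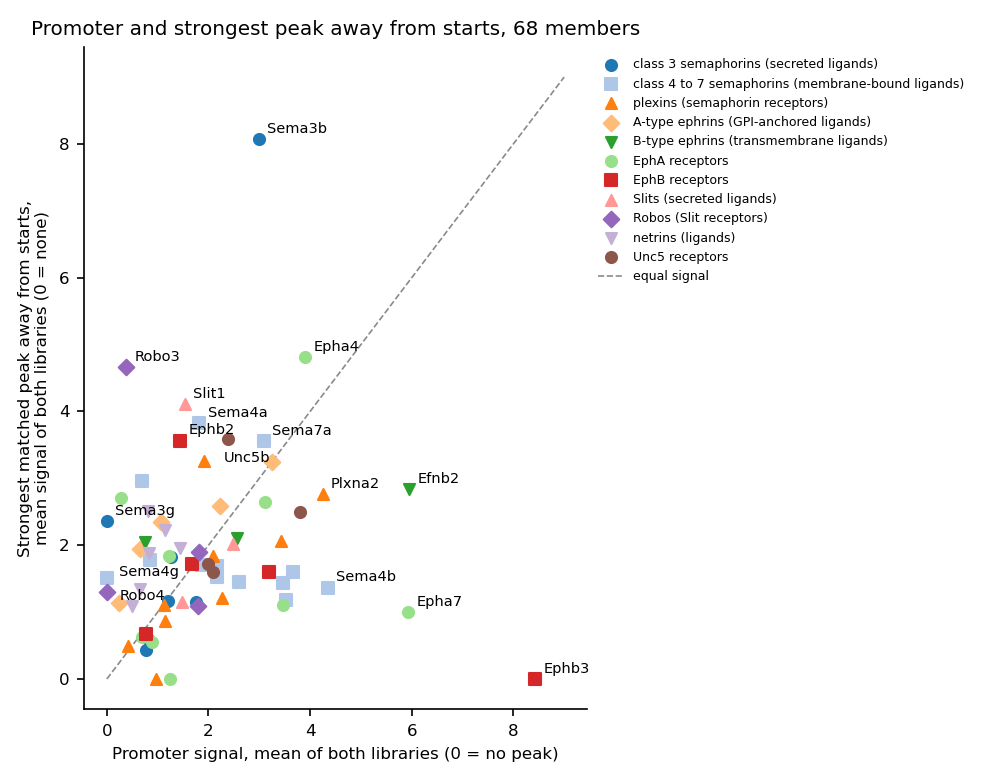
Strongest matched peak away from starts against promoter signal, both as the mean of the 2 libraries, for the 68 members by family, with a dashed line at equal signal. Sema3b, Robo3, Slit1, Sema4a and Ephb2 lie well above the line, and Ephb3, Epha7 and Efnb2 well below it.

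The sequences of the 4 strongest sites and of a weaker one in Sema5a, of rank 12, are shown. Footprints lay in all of them in both libraries, as they did at stronger sites that are not shown. Each covers the peak of both libraries on the strand of the gene, with bases in a footprint of both in capitals. Sema3b is at chr9:107612721-107612960, Epha4 at chr1:77516341-77516560, Robo3 at chr9:37430681-37430880, Slit1 at chr19:41697501-41697780 and Sema5a at chr15:32246081-32246280.
Sema3b upstream flank: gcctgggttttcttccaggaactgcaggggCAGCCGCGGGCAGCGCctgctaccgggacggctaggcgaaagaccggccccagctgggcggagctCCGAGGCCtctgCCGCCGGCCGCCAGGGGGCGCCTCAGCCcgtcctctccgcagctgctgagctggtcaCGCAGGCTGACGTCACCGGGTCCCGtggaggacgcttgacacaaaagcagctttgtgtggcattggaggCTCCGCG
Epha4 upstream flank: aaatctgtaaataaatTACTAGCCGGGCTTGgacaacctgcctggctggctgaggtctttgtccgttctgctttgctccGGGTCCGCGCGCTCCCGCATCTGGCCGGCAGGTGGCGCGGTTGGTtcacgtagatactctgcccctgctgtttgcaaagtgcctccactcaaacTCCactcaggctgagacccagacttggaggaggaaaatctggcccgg
Robo3 intron: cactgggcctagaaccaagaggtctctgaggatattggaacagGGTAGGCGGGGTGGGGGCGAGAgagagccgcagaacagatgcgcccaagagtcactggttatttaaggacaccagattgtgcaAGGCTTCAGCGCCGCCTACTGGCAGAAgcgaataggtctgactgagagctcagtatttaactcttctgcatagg
Slit1 intron: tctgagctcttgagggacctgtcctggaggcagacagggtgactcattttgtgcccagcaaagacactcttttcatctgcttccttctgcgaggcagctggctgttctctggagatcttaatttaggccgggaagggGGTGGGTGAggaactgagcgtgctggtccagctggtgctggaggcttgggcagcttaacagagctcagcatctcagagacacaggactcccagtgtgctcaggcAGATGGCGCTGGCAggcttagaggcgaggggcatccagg
Sema5a intron: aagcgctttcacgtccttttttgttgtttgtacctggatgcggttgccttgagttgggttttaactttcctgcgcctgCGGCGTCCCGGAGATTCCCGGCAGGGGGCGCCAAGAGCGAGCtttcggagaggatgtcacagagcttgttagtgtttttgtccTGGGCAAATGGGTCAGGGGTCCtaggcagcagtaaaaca
The Sema3b site held 1 match to the CTCF core (AGGGGGCG on either strand), part of the consensus of the insulator protein CTCF, and 1 to the cyclic AMP response element (TGACGTCA), and both overlapped a footprint in both libraries. The Sema5a site, 1078 bases downstream of the nearest annotated start at 2.78 and 3.14, held 1 CTCF core match, also in a footprint of both. Of the 20 strongest sites searched, only 2, those at Sema3b and Sema5a, held a CTCF core match, so Sema5a is not an unselected example. Only these exact letters were searched. Other forms of the CTCF consensus were not, so a site without a match may still hold one, also within the footprints at Epha4, Robo3 and Slit1. The Epha4 and Slit1 sites each held a CAGATG E-box that overlapped a footprint in both libraries, and the one at Robo3 did not. Over all 510 member pairs away from starts the CTCF core matched in 2.94% of 300-base windows, against 2.71% of all pairs, the CAGATG E-box in 33.1% against 32.7%, and AP-1 (TGANTCA) in 14.5% against 18.0%.

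Footprints lay in the promoter windows of 58 members in both libraries (85.3%), against 61.5% of all protein-coding genes. These shares lie just below the 89.7% and 63.6% with a promoter peak in both libraries. They thus show no excess of footprints beyond that of open promoters. There were 394 in library 1 and 549 in library 2, with a median length of 9 bases in each, and the whole genome had 271439 in library 1 and 323715 in library 2. Around the strongest start they were most frequent in the 250 bases before it, with 150 of 298 in library 1 and 171 of 414 in library 2. By the sum of both libraries Ephb3 had the most over its starts, 12 and 20, followed by Sema6d with 12 and 16, Slit3 with 13 and 15, Plxnc1 with 16 and 11 and Sema4b with 11 and 16. In library 1 Plxnc1 and Epha7 (16 and 10) had more than Ephb3. Efna5, Ntn4 and Ntn5 were open and had no footprint in library 1, against 8, 5 and 2 in library 2. Of the member footprints, 53.8% in library 1 and 37.3% in library 2 overlapped one of the other library, against 52.4% and 43.4% of all footprints.

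In the 300 bases from 250 before to 50 after the strongest start, the GC box matched in 44 of 68 members (64.7%), against 44.3% of all protein-coding genes and 61.3% of the open ones. The CTCF core matched in 12 (17.6%), against 7.89% of all genes and 11.3% of the open ones, and its letters can overlap those of the GC box. The TATA box (TATAAA) matched in 2 members, Efnb2 and Slit2, or 2.94%, against 12.3% of all genes and 6.92% of the open ones, and CCAAT in 29.4%, against 39.0% and 38.4%. NRF1 (GCATGCGC) matched in 1 member, Plxna1, and the cyclic AMP response element in 1, Epha2, against 5.21% and 3.48% of open genes. The CACGTG E-box matched in 4 members (5.88%, against 7.95% of all and 10.2% of open genes), CAGATG in 8 (11.8%, against 14.9% and 11.9%), AP-1 in 5 (7.35%, against 6.73% and 4.64%) and an RFX site (GTTGCCA) in 3 (4.41%, against 4.41% and 4.24%). At open members, 34 of 110 GC box matches (30.9%) overlapped a footprint in both, against 45.0% at all open genes, and 3 of 11 CTCF core matches (27.3%) did, against 65.0%. Median GC content of this window was 64.5% over the members and 55.3% over all genes.

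The libraries shared peaks over the members about as often as elsewhere, while their promoter signals agreed less closely at members than at all open genes. Of the member peaks, 706 of library 1 (77.8%) overlapped a peak of library 2, against 77.8% of all its peaks, and 702 of library 2 (74.6%) overlapped one of library 1, against 73.2%. Across the 61 open members, Spearman's rho of the signals was 0.948, and it was 0.978 across all 13956 open genes, a description across genes that share both libraries. Open members also had weaker promoters, with medians of 1.85 and 2.02 against 3.13 and 3.47. The part of promoter signal in the lower rho and in the 2-fold differences below was not tested. Library 2 had the higher promoter signal at 43 of the 61 (70.5%), against 68.1% of all genes of this kind, with a median log2 ratio of library 1 over library 2 of -0.19 over the members and -0.11 over all. With open genes split into 3 parts of low, middle and high GC content at the start, this median was -0.04, -0.10 and -0.21 over the members of each part, and -0.10, -0.10 and -0.14 over all genes. Signals more than 2-fold apart were found at 2 members (3.28%), Ntn4 and Ephb6, against 0.537% of all genes, with log2 ratios of -1.13 and -1.11. Ntn5 at -0.87, Sema3c at -0.82 and Ntng1 at -0.79 followed, all higher in library 2. The widest promoter peak was broader in library 1 at 23 members and in library 2 at 33, and that of Ntn4 was 74 bases wide in library 1 and 1000 in library 2. Over all matched pairs of member peaks, 12 of 663 (1.81%) were more than 2-fold apart, against 1.59% of all pairs.

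Partners of these genes were also mostly open at their starts. Of 15 coreceptors and cofactors, 13 were open, Draxin had a promoter peak in library 2 alone and Flrt1 had none. Rgmb, a repulsive guidance molecule, had 8.79 in library 1 and 7.88 in library 2, and its receptor Neo1 had 5.29 and 4.56. Dcc, the attractive netrin receptor, had 1.12 and 1.07, and among the neuropilins Nrp1 had 1.17 and 1.62 and Nrp2 had 2.21 and 2.51. Of 30 intracellular transducers, 29 were open, against 63.6% of all protein-coding genes, and Fes had a promoter peak in library 1 alone. Their median of 2.96 and 3.42 lay above the 1.49 and 1.82 of the ligands and receptors themselves and below the 3.13 and 3.47 of all open genes, while all protein-coding genes had 1.31 and 1.55. The adaptor Nck1 had 9.0 and 8.46, Dpysl2, which carries semaphorin signals to microtubules, 8.49 and 7.91, and Srgap2, a GTPase-activating protein of the Slit and Robo pathway, 8.27 and 7.17. Among the low ones, Grip1 had 0.837 and 0.993 and Vav3 0.892 and 1.38.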

How the data were processed

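DNase-seq had been done on 2 libraries of left cerebral cortex, and each library came with its own peak and footprint lists on the mm10 build, per the deposited readme files. Aligner, peak caller and settings: not given in the sources used here. Each peak's signal (column 7 of its list) was deposited by the authors with no stated normalization, so signals of the 2 libraries were set side by side and not rescaled. All lines of the deposited footprint lists carry a q-value of 0.01, which was taken as the threshold of the call. Depth is unknown, so no counting error could be given.

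The longer of the 2 peak lists of each library was used, on chromosomes 1 to 19, X and Y, with GENCODE M21. Features overlapped from 1 base on. A footprint counted by overlap with the window, and so did a motif match with a footprint. Of the members, 59 had RefSeq promoter entries, and all 75 such entries were identical in the genome read here. Peaks of a list can overlap each other and were counted as listed (42 and 62 member peaks of library 1 and library 2 did). The tissue makes 1 group of 2 libraries, so values are given per library or as mean and SD, without a test. The members and all lists were chosen with earlier results of these data known. All members may be named. Full values were given for the highest and lowest of each family, members lacking a promoter peak, the 6 highest and 6 lowest size percentiles, the 8 strongest peaks away from starts, the 5 most different promoters and the 5 with most footprints, and values of other members were added after they were seen. The counting steps were tested on simulated data. Alternatives were promoter windows of 200 and 2000 bases, no flank or 50 kb, the shorter lists, peaks above the median signal, a 50% overlap, the most upstream start alone, scaled signals and each library alone. Python 3.11.15, numpy 2.4.6, pandas 2.3.3, pysam 0.24.0 and matplotlib 3.10.9 were used.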

Additional observations from a re-analysis of the deposited data

How the results depend on the processing

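The 61 members with a promoter peak in both libraries became 60 and 65 with windows of 200 and 2000 bases, 56 with the shorter lists, which dropped Epha1, Ntn3, Ntn4, Ntn5 and Plxnb3, and 53 with peaks above the median signal. From each library alone the count was 61 to 65. The wider window added Efna4, Epha10, Robo3 and Sema4g, and moved the median promoter signal, as the mean of both libraries, to 2.03, against 1.66 as reported, while each library alone gave 1.49 to 1.82. Counts of members with a footprint in both ranged from 58 to 65 with windows of 200 and 2000 bases, footprints whole inside a peak and each library alone. Without flanks 2 members, Epha1 and Sema4g, had no peak, and the median size percentile was 66.9, against 72.3 as reported. It was 66.3 with the shorter lists and 77.7 with peaks above the median signal, which left 539.5 and 495.5 member peaks, against 924 (means of both libraries). The share of peaks found in both libraries was 60.1% when at least 50% of both regions had to overlap, 79.7% with the shorter lists and 81.6% with peaks above the median signal, against 76.2%. Pairs more than 2-fold apart fell to 5 with the shorter lists, against 12. The cause of these shifts was not tested. Of 43 genes with full values, 36 kept their promoter signal within 1 SD when the most upstream start alone was used, and 7 fell (Plxna2, Plxnc1, Robo1, Sema3b, Sema4a, Sema6d and Slit3). With the window of 2000 bases 33 did and 10 were higher, among them Robo3 at 4.66, against 0.376, and Plxnb2 at 3.27, against 1.91. No paired analysis was possible because there is 1 group and no comparison between groups.

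With 2 libraries of unknown depth and the same donor identifier, a member without a peak was not detectable in the lists, which does not show that it is closed. Efna2, Efna4, Epha10 and Robo3 each had their promoter peak in library 2 alone, at 1.29, 0.463, 0.549 and 0.752. The signal has no stated scale, and no gene expression was measured.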
